A study of Mus musculus with 12 samples.

Results

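The cerebellins, their relative C1ql1 and the receptors and scaffold that work with them were examined in the cerebellum of a mouse model of spinocerebellar ataxia type 1. They were taken by gene symbol as 8 genes (Cbln1, Cbln2, Cbln3, Cbln4, C1ql1, Grid1, Adgrb3 and Grid2ip) of the 55401 gene identifiers in the count tables. All 8 had reads in every library and passed the filter on low counts. RNA was sequenced from 12 mice, 1 library per mouse, in 3 groups of 4. The WT DMSO group held wild-type mice (libraries 413, 425, 426 and 431) and the Het DMSO group held mice heterozygous for the Atxn1 154Q/2Q knock-in (409, 411, 420 and 429), both injected with the solvent dimethyl sulfoxide alone. The Het Hit 2 group held knock-in mice of the same genotype given the compound Hit 2 in that solvent (410, 421, 422 and 430). The knock-in allele is an expanded CAG repeat in the endogenous Atxn1 gene, so it is not restricted to a cell type. Every group, the wild-type one included, received intraperitoneal injections from 18 weeks of age, on 5 days, then after 2 rest days on 5 more, and tissue was taken at 20 weeks. Hit 2 was at 25 mg/ml, and the DMSO volume was kept under 4 ml/kg. No wild-type mice given Hit 2 were analysed here, and the labels name neither the strain background nor litters.

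Purkinje cells receive a dense input from parallel fibres, the axons of granule cells, and a single strong input from a climbing fibre of the inferior olive. At parallel fibre synapses, granule cells secrete Cbln1, which joins neurexins on the axon to delta-type glutamate receptors on the Purkinje spine and holds the synapse together. Cbln3 is a granule cell subunit that assembles with Cbln1, and Cbln2 and Cbln4 are paralogs expressed mainly in other neurons. At climbing fibre synapses the related protein C1ql1, made by olivary neurons, binds the adhesion receptor Adgrb3 (BAI3) on the Purkinje cell. Grid1 encodes a delta-type receptor found in many brain regions. Grid2ip (delphilin) is a scaffold that binds the tail of the delta-type receptor in Purkinje spines.

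Each library held between 15855751 and 45265719 reads assigned to genes. Library 411 (Het DMSO) stood apart from the other 11, and the transcripts that define cerebellar cortex were nearly missing from it. The granule cell marker Gabra6 was at 0.606 CPM (read counts scaled to library size) there and at 227 to 388 in the others, and the Purkinje marker Pcp2 was at 0.555 against 70.2 to 209. In the same library Slc17a6, the glutamate transporter of cerebellar nuclei and many brainstem neurons, was at 278 CPM and the midbrain gene Slc6a3 was at 36.2. These values go against the label of library 411 as cerebellum, and whether it holds another brain region was not tested. Each Het DMSO mean and fold change that includes it carries this doubt about its tissue. Slc17a6 was also at 84.6 CPM in library 410, 48.5 in 430 and 37.5 in 413, against 0.253 in 422. Library 409 (Het DMSO) had 0.0796% of its gene reads on mitochondrial genes, against 1.85% to 2.81% in the rest. Hox genes of the medulla list summed to 20.1 CPM in library 425 and to at most 2.03 elsewhere. Libraries 425 and 426, both WT DMSO, carried Xist at 1393 and 1437 CPM (here without the scaling factor), and no other library was above 0.295, so both sexes occur in the wild-type group only. The main values below include all 12 libraries, and values without library 411 stand beside those it moved.

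**Figure D1:**
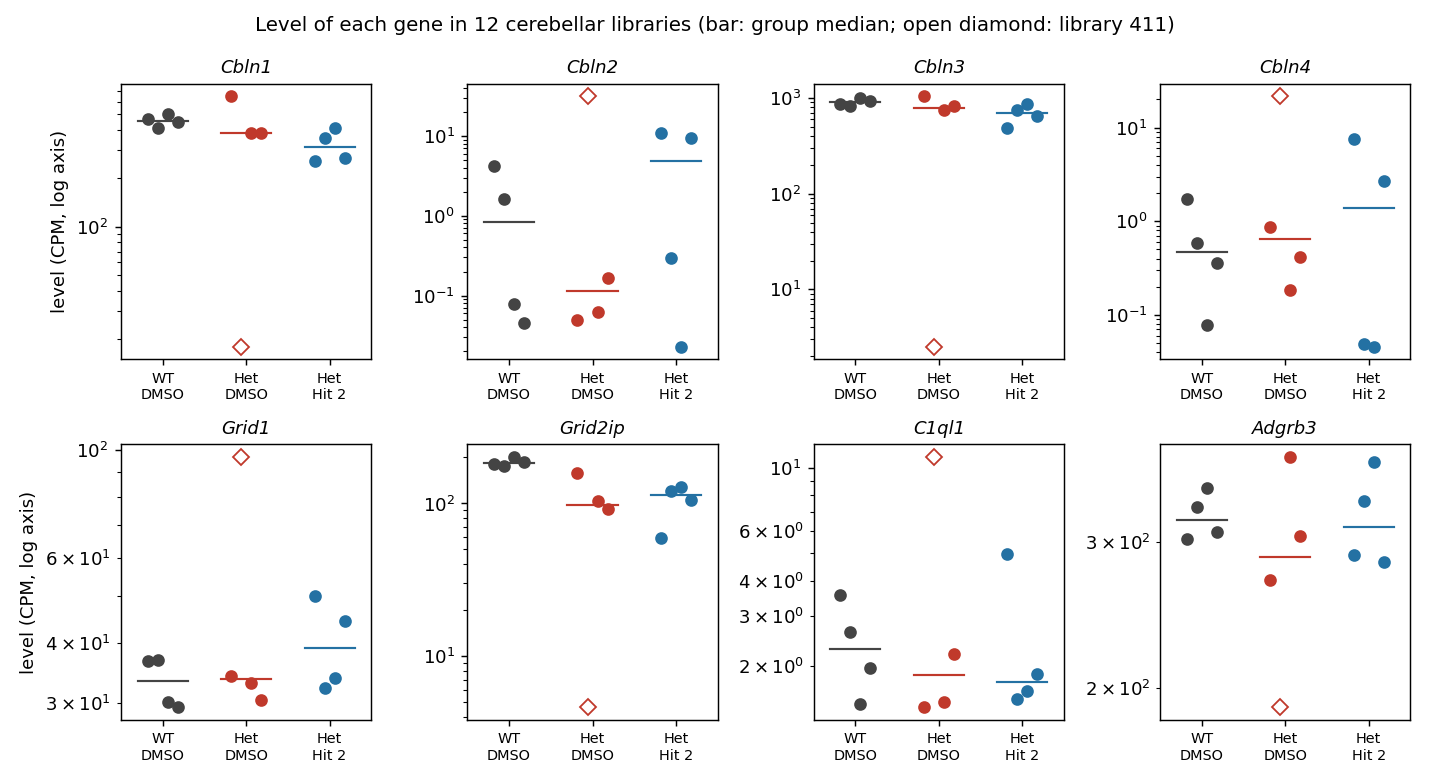
Level of each of the 8 genes in CPM (vertical log axes, each with its own range) by group, with 1 point per library, a bar at the group median and an open diamond for library 411. Library 411 lies at 18.0 CPM for Cbln1, 2.52 for Cbln3 and 4.64 for Grid2ip, below every other library, and at 31.5 for Cbln2 and 21.7 for Cbln4, above every other library.

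The levels of the 8 genes spanned a wide range. Per kilobase of exon in the 4 WT DMSO libraries, Cbln3 had the highest level at 188 ± 15.5 CPM per kb (SD, n = 4), followed by Cbln1 at 150 ± 12.7. Grid2ip came next at 27.5 ± 1.70 CPM per kb, then Adgrb3 at 17.4 ± 1.13 and Grid1 at 5.59 ± 0.683. The ranges of these neighbours did not overlap over the wild-type libraries. C1ql1 was at 1.64 ± 0.617 CPM per kb, Cbln2 at 0.516 ± 0.682 and Cbln4 at 0.239 ± 0.253. C1ql1 was above Cbln4 in every wild-type library, with ranges that did not overlap, whereas the range of Cbln2 overlapped both and its place cannot be ordered beyond the spread. The 2 granule cell ligands were thus the highest of the 8. Across the 12 libraries Adgrb3 varied least, with a highest level 2.00 times its lowest. By the same ratio Cbln2 varied most, by a factor of 1368 that rests on 1 read in the lowest library. On log2 CPM with a prior count of 2, the range of Cbln3 was wider (8.66 units against 8.38 for Cbln2).

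None of the 8 genes passed the test in any comparison. The question asked of Het DMSO against WT DMSO is which transcripts differ with the knock-in allele, and there 0 of 8 reached an adjusted p of 0.05 in edgeR's quasi-likelihood test, where 0.00516% of the 19378 genes tested did (1 gene). At an unadjusted p of 0.05 the count was also 0 of 8, where 7.11% of all genes passed. Het Hit 2 against Het DMSO asks what differs with the compound. It gave 0 of 8 at the adjusted threshold, where 0% of all genes passed, and 0 of 8 at the unadjusted one, where 1.55% did. Het Hit 2 against WT DMSO gave 0 of 8 at the adjusted threshold against 0.00516% of all genes, and 0 of 8 at the unadjusted one against 1.71%. Without library 411 none reached the adjusted threshold either, and 1, 2 and 3 of the 8 were under the unadjusted one in the 3 comparisons, where 7.33%, 5.96% and 3.81% of all genes were. The smallest adjusted p among the 8 was 0.616, 0.898 and 0.9999 in the 3 comparisons in edgeR. DESeq2 and limma with a quality weight per library also called 0 of 8 in each. The median log2 fold change of the 8 genes was 0.19, -0.21 and 0.02, beside medians of 0.05, -0.04 and 0.02 over all genes tested. The 3 comparisons share libraries pairwise, so their values are not independent of each other.

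**Figure D2:**
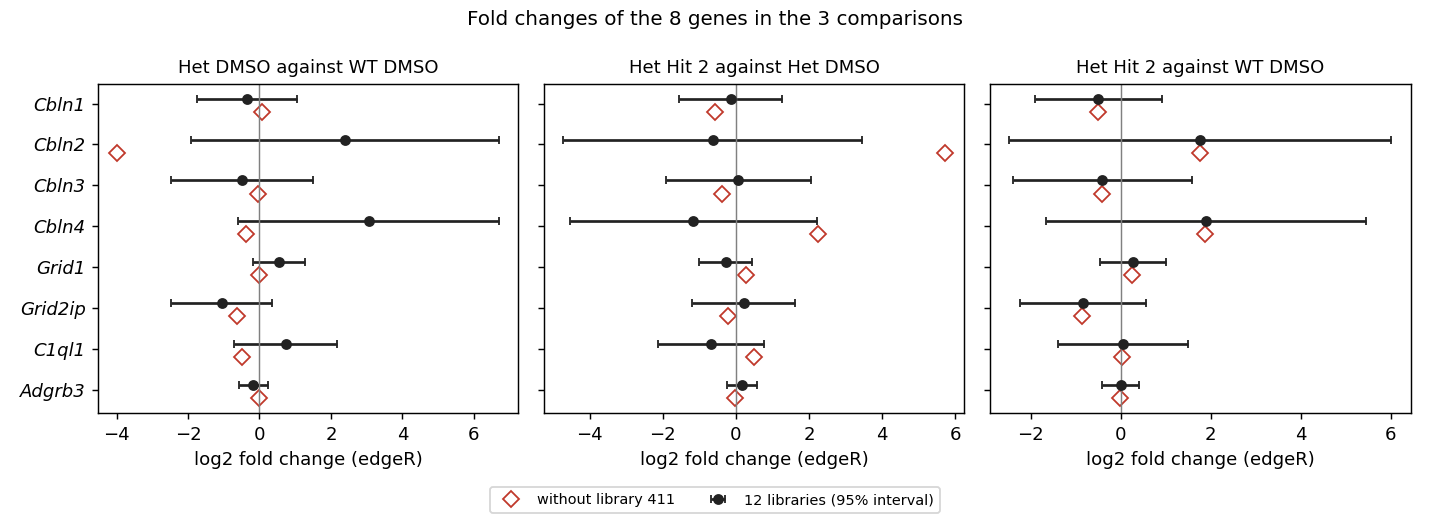
Log2 fold change of each gene (horizontal axis) in the 3 comparisons, as points with 95% intervals from the edgeR fit over 12 libraries and as open diamonds from the fit without library 411. All intervals cross 0, and without library 411 the Cbln2 value in Het DMSO against WT DMSO is at -3.98 where the fit with it gives 2.40.

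Grid2ip, the Purkinje scaffold, was the gene of the 8 whose knock-in libraries all lay below the wild-type ones. It lies at chr5:143357338-143392152 on the plus strand (GENCODE M21, GRCm38) and has 20 merged exons. The annotated gene Gm20635 overlaps its exons on the opposite strand, and the counts used here are stranded. Its level was 181, 175, 202 and 188 CPM in WT DMSO libraries 413, 425, 426 and 431. In Het DMSO it was 159, 4.64, 103 and 92.1 CPM in libraries 409, 411, 420 and 429. Het Hit 2 libraries gave 59.8, 121, 129 and 105 CPM in libraries 410, 421, 422 and 430. All 8 Het libraries were below all 4 WT libraries, while the 2 Het groups overlapped widely. The wild-type libraries with and without Xist interleaved. A split of this kind, all 8 Het below all 4 WT, held for 1 of the 8 genes and for 1.18% of all genes tested. Grid2ip was also the 1 gene of 8 whose groups did not overlap in Het DMSO against WT DMSO (4.39% of all genes) and when Het Hit 2 was set against WT DMSO (6.32%). Between the 2 Het groups 0 of 8 were without overlap (1.03% of all genes).

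The mean Grid2ip level was 186 ± 11.5 CPM in WT DMSO, 89.8 ± 63.9 in Het DMSO and 104 ± 31.0 in Het Hit 2 (SD, n = 4 each). Without library 411 the Het DMSO mean was 118 ± 36.0 CPM (SD, n = 3). Het DMSO differed from WT DMSO by a log2 fold change of -1.05 (SE 0.65, 95% interval -2.46 to 0.36, edgeR adjusted p = 0.618). An exact two-sided permutation test of the same 8 libraries gave p = 0.0286, the smallest that 4 against 4 allows. The same contrast for the Hit 2 group gave -0.84 (SE 0.65, interval -2.25 to 0.56, adjusted p = 0.9999 in edgeR, exact permutation p = 0.0286). These are 2 of 24 such single-gene tests, and no other gave a p under 0.05. The 2 Het groups differed by 0.21 (SE 0.64, interval -1.19 to 1.61), with an adjusted p of 0.941 in edgeR. Library 411 moved these values. Without it Het DMSO against WT DMSO was at -0.63 and Het Hit 2 against WT DMSO at -0.85 (adjusted p = 0.620 and 0.569 in edgeR). Het Hit 2 against Het DMSO was then at -0.22 (adjusted p = 0.717 in edgeR), so its sign turned. Without libraries 409 and 411 the difference from wild type was -0.94 in Het DMSO (unadjusted p = 0.00288, adjusted p = 0.334 in edgeR) and -0.85 in Het Hit 2 (unadjusted p = 0.00111, adjusted p = 0.112). In bulk tissue, fewer cells of a type and less RNA per cell cannot be told apart.

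Markers of the Purkinje cell moved with Grid2ip. All 8 genes of the Purkinje list (Pcp2, Calb1, Car8, Ppp1r17, Slc1a6, Rgs8, Gng13 and Itpr1) had negative fold changes relative to WT DMSO, with a median log2 value of -1.10 in Het DMSO and -0.61 in Het Hit 2. Between the Het groups all 8 values were positive, that is, toward Hit 2, with a median of 0.39. Library 411 set this last pattern. Without it 5 of 8 were positive and 3 negative (Rgs8 at -0.25, Itpr1 at -0.24 and Slc1a6 at -0.34), with a median of 0.0015. Relative to WT DMSO all 8 were negative without it too, with medians of -0.69 and -0.62, and 5 and 7 of the 8 had an unadjusted p under 0.05, where 7.33% and 3.81% of all genes did. None of the 8 passed the adjusted threshold in any of these, with or without library 411. The summed level of the list was 7127 to 7425 CPM in WT DMSO, 514 to 6544 in Het DMSO (4453 to 6544 without library 411) and 3038 to 6109 in Het Hit 2, and no list gene was at 0 in any library. Gng13, a G protein subunit of Purkinje cells, had the lowest unadjusted p of the list in both comparisons with wild type (0.00325 and 0.0159 in edgeR), with 70.3 to 86.5 CPM in the 4 WT libraries and 7.92 to 46.1 in the 8 Het libraries. Its log2 fold change without library 411 was -1.09 in both (adjusted p = 0.152 and 0.0623 in edgeR). Gng13 was singled out after its values were seen. Grid2ip was therefore also set relative to these markers.

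**Figure D3:**
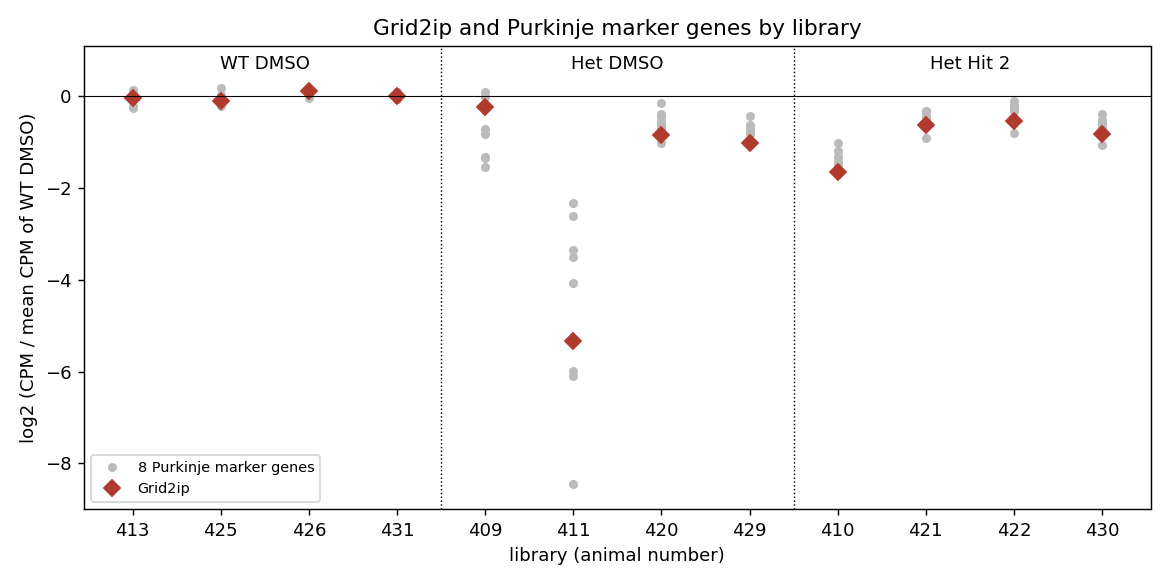
Level of Grid2ip (red diamonds) and of the 8 Purkinje marker genes (grey points) in each library, as the log2 ratio to the gene's own mean CPM in WT DMSO (vertical axis). Grid2ip lies at the low edge of the markers in 6 of 8 Het libraries, below all 8 markers in library 429 and above Gng13 alone in 5 others, and it lies above 5 of 8 markers in library 409 and 3 of 8 in library 411.

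Relative to the summed CPM of the 8 Purkinje markers, Grid2ip stood at 2.51%, 2.45%, 2.72% and 2.60% in the 4 WT DMSO libraries. In Het DMSO the ratio was 2.43%, 0.904%, 1.95% and 2.07% in libraries 409, 411, 420 and 429. Het Hit 2 gave 1.97%, 2.19%, 2.11% and 2.16%. The highest Het library (409) lay just under the lowest WT library (425). Divided by the same sum, 0.0516% of all genes tested had all 8 Het libraries below all 4 WT libraries, and 30.2% had all 8 above, beside a sum that was itself lower in every Het library. Only genes about as low in library 411 as this sum can be among the first, so that share does not measure how rare the Grid2ip pattern is. The difference in mean log2 ratio from WT DMSO was -0.57 in Het DMSO and -0.29 in Het Hit 2, each with an exact permutation p of 0.0286. Without library 411 the first was -0.26. Between the Het groups it was 0.29 (exact permutation p = 0.600), and -0.03 without library 411. These ratios were formed after the values had been seen, and their denominator is mostly Itpr1, the inositol trisphosphate receptor of Purkinje cells, at 2011 to 4727 CPM in the libraries other than 411.

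Cbln1, the organizer released by granule cells, lies at chr8:87468405-87472609 on the minus strand. It was at 467, 411, 504 and 446 CPM in WT DMSO libraries 413, 425, 426 and 431. Het DMSO gave 648, 18.0, 382 and 383 CPM in libraries 409, 411, 420 and 429. Het Hit 2 gave 256, 357, 413 and 268 CPM in libraries 410, 421, 422 and 430. Het DMSO held both the highest and the lowest of the 12 libraries, and 3 of 4 Het Hit 2 libraries were below every WT library. Means were 457 ± 38.7 CPM in WT DMSO, 358 ± 259 in Het DMSO and 323 ± 74.8 in Het Hit 2 (SD, n = 4 each). In log2, Het DMSO differed from WT DMSO by -0.35 (SE 0.64), Hit 2 from Het DMSO by -0.15 (SE 0.64) and Hit 2 from WT DMSO by -0.50 (SE 0.65). Their edgeR adjusted p-values were 0.832, 0.959 and 0.9999. Exact permutation p-values were 0.543, 0.914 and 0.0571. Without library 411 the changes were 0.07, -0.58 and -0.51, with unadjusted p of 0.769, 0.0254 and 0.0328 and adjusted p of 0.905, 0.630 and 1.000 in edgeR. Without libraries 409 and 411 they were -0.27, -0.24 and -0.51. The unadjusted p in edgeR was then 0.160, 0.187 and 0.00472, and the adjusted p 0.994, 0.983 and 0.2125. Without libraries 410, 411 and 430, Het Hit 2 against WT DMSO was at -0.25.

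Cbln3, the granule cell subunit that is secreted together with Cbln1, lies at chr14:55878913-55884392 on the minus strand. Its level was 877, 833, 1006 and 940 CPM in the 4 WT DMSO libraries in the same order. In Het DMSO it was 1048, 2.52, 759 and 817 CPM, and in Het Hit 2 it was 489, 750, 864 and 650 CPM. As for Cbln1, library 409 was the highest and library 411 the lowest of all. The 3 log2 fold changes of Cbln3 were -0.48 (SE 0.91), 0.07 (SE 0.91) and -0.41 (SE 0.91) in the order above, with edgeR adjusted p of 0.841, 0.986 and 0.9999. Without library 411 they were -0.04, -0.38 and -0.42. In library 411, Cbln3 was at 0.519 CPM per kb (50 reads) and Cbln1 at 5.93 (357 reads), whereas Cbln3 was the higher of the pair per kb in each of the other 11.

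Granule cell markers differed in the same libraries. The 8-gene list (Gabra6, Neurod1, Fat2, Slc17a7, Gabrd, Cadps2, Rbfox3 and Grin2c) summed to 4254 to 5125 CPM in WT DMSO, 214 to 7595 in Het DMSO (4329 to 7595 without library 411) and 3080 to 5348 in Het Hit 2. Of its genes, 6 of 8 were negative in Het DMSO relative to WT DMSO (median log2 fold change -0.10) and 7 of 8 in Het Hit 2 (median -0.21), and 5 of 8 were negative with Hit 2 relative to Het DMSO (median -0.14). The first of these turned without library 411, with 6 of 8 positive and a median of 0.34, and all 8 were negative with Hit 2 relative to Het DMSO, with a median of -0.54. Het Hit 2 against WT DMSO then had a median of -0.23 (7 of 8 negative). Of the Het DMSO libraries left, 409 summed to 7595 CPM, against 4746 in 420 and 4329 in 429, and its part in these medians was not tested. Without library 411, 0 of 8 had an unadjusted p under 0.05 in Het DMSO against WT DMSO. The count was 3 in Het Hit 2 against Het DMSO and 1 in Het Hit 2 against WT DMSO. The shares of all genes were 7.33%, 5.96% and 3.81%. None passed the adjusted threshold with or without library 411, and none was at 0 in any library, though Gabrd, a receptor subunit of granule cells, was at 0.353 CPM in library 411.

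Relative to that sum, Cbln1 was lower in every Het library than in every WT library. It stood at 9.88%, 8.95%, 9.82% and 10.5% in WT DMSO libraries 413, 425, 426 and 431. In Het DMSO it was 8.53%, 8.42%, 8.05% and 8.84%, and in Het Hit 2 it was 8.31%, 8.13%, 7.72% and 8.30%. The margin was narrow, from 8.84% in library 429 to 8.95% in library 425. Of all genes tested, 0.119% had a ratio to this sum that was lower in all 8 Het libraries, and 0.568% one that was higher in all 8. Only genes about as low in library 411 as the sum can be among the first, so this share has the same limit as that of the Purkinje sum. The ratio in library 411 lay between those of libraries 409 and 420, although its Cbln1 level was the lowest of the 12. The difference in mean log2 ratio from the wild-type group was -0.21 in Het DMSO and -0.27 in Het Hit 2, each with an exact permutation p of 0.0286. Leaving out each library in turn kept these between -0.25 and -0.17 and between -0.31 and -0.23. The 2 Het groups differed by -0.06 (exact permutation p = 0.171). Cbln3 did not show this pattern. Its ratio was 18.1% to 22.1% in WT DMSO, 1.18% to 18.9% in Het DMSO (13.8% to 18.9% without library 411) and 15.9% to 20.2% in Het Hit 2, and the groups overlapped in each comparison. The differences of Cbln3 were -1.22, 1.04 and -0.18 (exact permutation p = 0.0857, 0.257 and 0.143). The first came to -0.28 and the second to 0.099 without library 411. These ratios, too, were formed after the values had been seen. Of the 9 tests of a ratio, 4 gave 0.0286, the smallest p possible, and with Benjamini-Hochberg adjustment over the 9 these 4 came to 0.0643. Fat2, an atypical cadherin of granule cells, is the largest part of the denominator outside library 411, at 45.1% to 53.0% of the sum. In library 411 it is 1.20%, and Rbfox3 (50.3%) and Cadps2 (30.7%) take its place, so the Cbln1 ratio there rests on other genes.

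**Figure D4:**
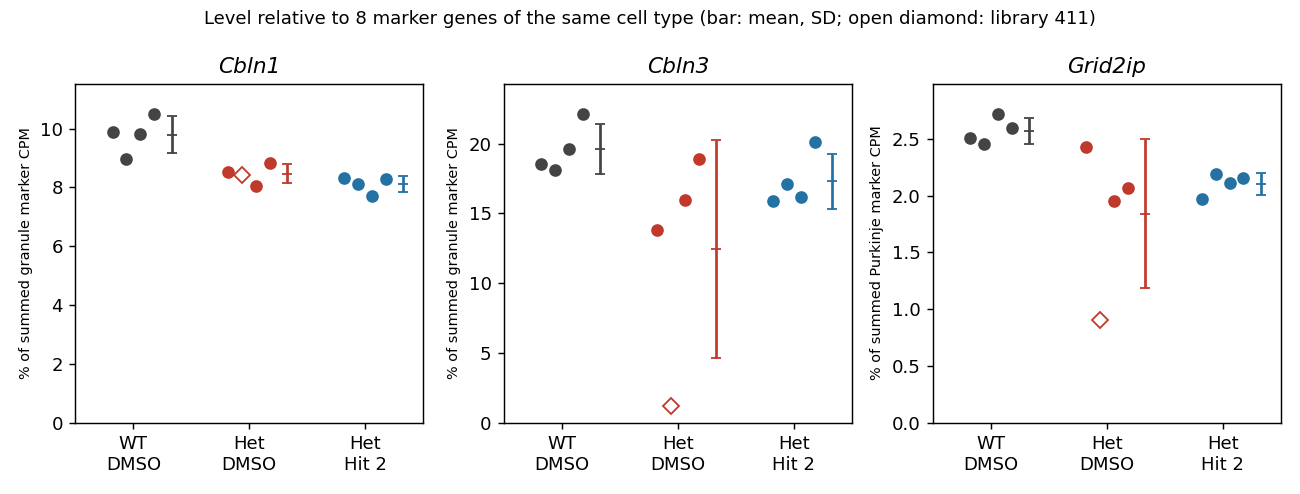
Level of Cbln1 and Cbln3 as a percentage of the summed CPM of 8 granule cell markers, and of Grid2ip as a percentage of 8 Purkinje markers (vertical axes from 0), with 1 point per library, the mean and SD beside them, and an open diamond for library 411. For Cbln1 the Het libraries lie between 7.72% and 8.84% and the WT libraries between 8.95% and 10.5%.

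Cbln2 was present in some libraries and nearly missing from others in every group. The gene lies at chr18:86711110-86718283 on the plus strand. In WT DMSO it was at 4.25, 1.60, 0.0785 and 0.0448 CPM in libraries 413, 425, 426 and 431. In Het DMSO it was at 0.0493, 31.5, 0.0622 and 0.167 CPM in libraries 409, 411, 420 and 429. Het Hit 2 gave 10.9, 0.297, 0.0230 and 9.34 CPM in libraries 410, 421, 422 and 430. Every group had libraries with 1 to 6 reads next to libraries with 68 to 623. Fitted log2 fold changes of Cbln2 were 2.40 (SE 1.98), -0.63 (SE 1.88) and 1.77 (SE 1.95), with adjusted p of 0.651, 0.940 and 0.9999 in edgeR. The first came to -3.98 and the second to 5.73 without library 411, each with the opposite sign (adjusted p = 0.620 and 0.630 in edgeR).

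Cbln4 had the same high libraries. It was at 1.75, 0.589, 0.0785 and 0.358 CPM in WT DMSO, in the order 413, 425, 426 and 431. Het DMSO gave 0.862, 21.7, 0.187 and 0.417 CPM in libraries 409, 411, 420 and 429. Het Hit 2 gave 7.64, 0.0494, 0.0460 and 2.72 CPM in libraries 410, 421, 422 and 430. Libraries 411, 410, 430 and 413 were the 4 highest for both Cbln2 and Cbln4. For Cbln4 the log2 fold changes were 3.06 (SE 1.67), -1.16 (SE 1.55) and 1.90 (SE 1.63), with adjusted p of 0.616, 0.898 and 0.9999 in edgeR. Without library 411 the first 2 were -0.37 and 2.24, and both signs turned. Leaving out library 410 alone moved the second to -2.64 and the third to 0.40, and leaving out 413 moved the third to 2.89. For Cbln2 the third was 1.08 without 410 and 3.07 without 413. Without libraries 410, 411 and 430 the change in Het Hit 2 against WT DMSO was -3.75 for Cbln4 and -3.49 for Cbln2. That fit kept library 413, the WT DMSO library among the 4 highest, so no direction is drawn from its negative values.

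The same 4 libraries were also the highest for Slc17a6 and Meis2, 2 genes of the cerebellar nuclei list that are expressed in other brainstem regions too. They were singled out after their values were seen, and the other 3 genes of the list did not share this order. Nefh, a neurofilament, was highest in libraries 411, 410 and 413 but at 72.2 CPM in 430, below 107 in 429. Spp1 was at 5.02 CPM in 430 and 16.0 in 429. Tbr1, a transcription factor, was lowest in library 411, at 0.454 CPM. Meis2, a transcription factor, was at 60.9 CPM in library 411, 39.5 in 410, 20.7 in 430 and 14.7 in 413, and at 0.299 to 6.88 in the others. The 5-gene nuclei list summed to 55.4 to 200 CPM in WT DMSO, 61.7 to 590 in Het DMSO (61.7 to 152 without library 411) and 71.1 to 331 in Het Hit 2, and all 5 of its genes were detected in every library. Of the midbrain list, 8 of 8 genes were detected in library 411, with Gata3 at 31.1 CPM, and 3 to 7 of 8 in the other libraries. Gata3 was at 9.03 CPM in 410, 3.38 in 430 and 1.32 in 413, and at no more than 0.292 in the rest. The levels did not run in parallel throughout. Slc17a6 was at 22.3 CPM in library 429 and 14.9 in 409, against 0.253 to 2.47 in libraries 420, 421, 422, 426 and 431, while Cbln2 had 4 and 2 reads in those 2 libraries. Whether Cbln2 and Cbln4 come from the cells that carry these transcripts was not tested.

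**Figure D5:**
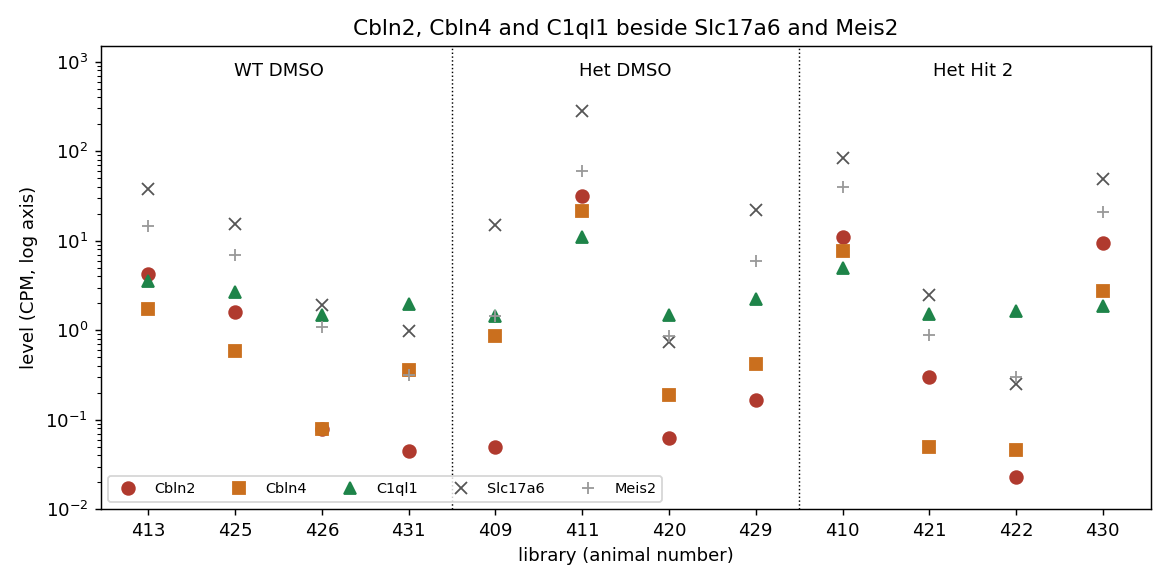
Levels of Cbln2, Cbln4 and C1ql1 beside those of Slc17a6 and Meis2 in each library, in CPM on a log axis. The 4 libraries with the highest Slc17a6 also have the highest Cbln2 and Cbln4, with 278, 31.5 and 21.7 CPM in library 411, whereas libraries 429 and 409 have Slc17a6 at 22.3 and 14.9 CPM and Cbln2 at 0.167 and 0.0493. C1ql1 spans a narrower range of 1.43 to 10.9 CPM.

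C1ql1, the climbing fibre ligand, was among the 3 lowest of the 8 genes per kilobase. The inferior olive, whose neurons make it, lies in the medulla, outside the cerebellum. It is encoded at chr11:102939264-102946688 on the minus strand. WT DMSO libraries 413, 425, 426 and 431 gave 3.57, 2.64, 1.47 and 1.97 CPM. Het DMSO gave 1.43, 10.9, 1.49 and 2.21 CPM in libraries 409, 411, 420 and 429, and Het Hit 2 gave 4.98, 1.53, 1.63 and 1.88 in libraries 410, 421, 422 and 430. Libraries 411 and 410 were the highest, and the groups overlapped in every comparison. Its log2 fold changes were 0.73 (SE 0.66), -0.69 (SE 0.66) and 0.05 (SE 0.66), with edgeR adjusted p of 0.672, 0.898 and 0.9999. With library 411 left out they were -0.48, 0.50 and 0.02. C1ql1 is also a transcript of oligodendrocyte precursors. The summed level of 5 precursor genes (Pdgfra, Cspg4, Neu4, Vcan and Gpr17) was 200 CPM in library 411 and 143 in library 410, and 81.1 to 111 in the others. Its part in the C1ql1 values was not tested.

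Grid1, the delta-type receptor, lies at chr14:34820108-35583379 on the plus strand. It was at 29.5 to 49.9 CPM in the 11 libraries other than 411. The values were 36.7, 36.9, 30.1 and 29.5 CPM in WT DMSO, 34.2, 96.8, 33.1 and 30.5 in Het DMSO and 49.9, 32.3, 33.8 and 44.3 in Het Hit 2, with libraries in the order used above. Libraries 411, 410 and 430, which led for Cbln2, were the 3 highest here as well. In log2, the changes of Grid1 were 0.54 (SE 0.34, interval -0.19 to 1.28), -0.28 (SE 0.34) and 0.27 (SE 0.34), and edgeR's adjusted p was 0.618, 0.898 and 0.9999. Leaving out library 411, the first was -0.014 and the second 0.27. Without libraries 410, 411 and 430 the last was -0.016. An exon of the annotated gene Gm27617 overlaps Grid1 on the same strand, so reads there could be left out as ambiguous.

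Adgrb3, the receptor that C1ql1 binds, lies at chr1:25067476-25829707 on the minus strand. It was at 303, 330, 348 and 308 CPM in WT DMSO, 270, 190, 380 and 305 in Het DMSO and 289, 336, 375 and 283 in Het Hit 2. It was the steadiest of the 8 genes, and even library 411 stood at 190 CPM, beside a wild-type mean of 322 ± 21.0 CPM (SD, n = 4). The log2 fold changes were -0.17 (SE 0.19, interval -0.58 to 0.24), 0.17 (SE 0.19, interval -0.24 to 0.57) and -0.01 (SE 0.19, interval -0.41 to 0.40). The adjusted p-values in edgeR were 0.713, 0.898 and 0.9999. Leaving out library 411, the changes were -0.0042, -0.014 and -0.018. These intervals are the narrowest of the 8.

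Other genes of these synapses gave no call either. A list of 24 partners was set up: neurexins, further C1q-like ligands, BAI receptors, proteins that bind the delta-type receptor or its scaffolds, and other organizers and receptors of the parallel fibre synapse. Of the 23 that could be tested, 0 were higher and 0 lower at the adjusted threshold in each of the 3 comparisons, with median log2 fold changes of 0.05, 0.01 and -0.05. At an unadjusted p of 0.05, 4, 0 and 2 of the 23 passed, beside the 7.11%, 1.55% and 1.71% of all genes. Leaving out library 411, the medians were -0.0090, -0.073 and -0.058, and 2, 1 and 5 passed, beside 7.33%, 5.96% and 3.81%. The 6 that passed with all 12 libraries are named because of their values. In Het DMSO against WT DMSO they were C1ql2 (log2 3.08), Lrrtm1 (1.52), Adgrb2 (0.47) and Shank2 (-0.66). Without library 411, C1ql2 (-0.90) and Adgrb2 (0.43) did not pass there, and Lrrtm1 (0.97) and Shank2 (-0.41) did. In Het Hit 2 against WT DMSO they were Nlgn1 (0.65) and Plxnc1 (0.28). Shank2, a postsynaptic scaffold of Purkinje spines, was at 389, 400, 424 and 378 CPM in WT DMSO, 344, 117, 293 and 250 in Het DMSO and 206, 322, 329 and 285 in Het Hit 2, so that all Het libraries were below all WT ones, as for Grid2ip. C1ql2, a ligand of the C1ql1 family, was at 14.2 CPM in library 411 and at no more than 2.14 in any other. Nlgn1, a neuroligin, was at 49.6 to 71.8 CPM in WT DMSO and 90.4 to 99.6 in Het Hit 2, a comparison without overlap for 6.32% of all genes. Het DMSO overlapped both, at 44.0, 98.2, 84.0 and 68.9 CPM in libraries 409, 411, 420 and 429. Without library 411 Nlgn1 was the partner that passed in Het Hit 2 against Het DMSO (log2 0.52, unadjusted p = 0.0169, adjusted p = 0.630 in edgeR). Homer3 was also singled out after its values were seen. Homer3, a Purkinje spine scaffold, was at 200 to 230 CPM in WT DMSO, 9.99 to 224 in Het DMSO (133 to 224 without library 411) and 85.4 to 189 in Het Hit 2.

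Other cell type lists were read beside these genes. None of the genes of the 10 marker lists passed the adjusted threshold in any comparison. The 8 genes of molecular layer interneurons and Golgi cells summed to 803 to 869 CPM in WT DMSO, 614 to 843 in Het DMSO (655 to 843 without library 411) and 684 to 788 in Het Hit 2. The 6 genes of astroglia and Bergmann glia summed to 1176 to 1277, 400.5 to 1064 and 729 to 1049 CPM, so that no Het library reached the lowest WT one. Het DMSO without library 411 ranged from 953 to 1064. Slc1a3 made up 53% to 68% of this sum outside library 411. Slc1a3 and Gdf10 alone had all Het libraries below all WT ones, while Aqp4, Gfap, Hopx and Fabp7 overlapped. Fabp7 had positive log2 fold changes relative to WT DMSO (0.31 and 0.54). Of all genes tested, 1.18% had all 8 Het libraries below all 4 WT ones. The 5 oligodendrocyte genes summed to 1581 to 3085, 1111 to 6006 and 1138 to 5054 CPM, with libraries 411 and 410 the highest of the 12 and 1111 to 3138 in Het DMSO without 411. The 6 forebrain genes summed to 5.00 to 9.35, 4.43 to 39.7 and 5.83 to 15.2 CPM, with 4.43 to 6.05 in Het DMSO without library 411. The 7 genes of medulla and olive were below the filter on low counts in every comparison. The part of these lists in the results was not tested.

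The genes whose pattern over libraries was most like each of the 8 were found by the root mean square difference of log2 CPM, each gene centred on its own mean, among 16615 genes. Over 12 libraries the nearest to Cbln1 was Shisa8 (0.13), the nearest to Cbln3 was the granule cell receptor subunit Gabrd (0.22) and the nearest to Grid2ip was Trabd2b (0.14). For Grid1 it was Cib2 (0.08), for C1ql1 AI593442 (0.20) and for Adgrb3 Csnk1g1 (0.07). For Cbln2 the nearest was AW551984 (0.59) and for Cbln4 Lncenc1 (0.55). The measure is not scaled to a gene's own range, which was 8.38 log2 units for Cbln2, 7.53 for Cbln4 and 1.00 for Adgrb3. It therefore cannot rank how closely different genes were followed. Over the 11 libraries other than 411 the nearest to Cbln1 became the neuronal splicing factor gene Rbfox3 (0.08), to Cbln3 Rnf182 (0.06) and to Grid2ip the Purkinje signalling regulator Rgs8 (0.13). For Cbln2 it was Baiap3 (0.60), while Cbln4 and C1ql1 kept Lncenc1 (0.57) and AI593442 (0.19). Rbfox3 and Rgs8 belong to the marker lists of granule and Purkinje cells. Grid1 and Adgrb3 varied by less than 1 log2 unit over those 11 libraries and were not matched. These are descriptions over libraries that share their depth and tissue makeup.

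Promoters are shown for Cbln3, Grid2ip and Cbln4, so that the regions from which these transcripts start can be compared. Among the 4 genes whose promoters were searched, they had the widest differences between libraries. The sequences are the 250 bases before a transcription start in RefSeq (GRCm38.p6), read on the gene's strand. Capitals mark matches, on either strand, to 4 short motifs: an E-box as bound by NeuroD-type factors (CAGATG), an NFI half-site (TTGGC), a ROR half-site (AGGTCA) and a TATA box (TATAAA). Cbln3 is shown at chr14:55884257-55884506 (minus strand), Cbln4 at chr2:172043467-172043716 (minus strand), and Grid2ip at its start 1, chr5:143363663-143363912, and its start 2, chr5:143369824-143370073 (plus strand).
Cbln3: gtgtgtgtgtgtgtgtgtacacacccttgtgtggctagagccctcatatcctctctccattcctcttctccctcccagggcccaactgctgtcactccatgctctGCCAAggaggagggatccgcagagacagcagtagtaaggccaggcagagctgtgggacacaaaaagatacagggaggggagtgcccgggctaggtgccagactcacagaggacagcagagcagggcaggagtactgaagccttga
Cbln4: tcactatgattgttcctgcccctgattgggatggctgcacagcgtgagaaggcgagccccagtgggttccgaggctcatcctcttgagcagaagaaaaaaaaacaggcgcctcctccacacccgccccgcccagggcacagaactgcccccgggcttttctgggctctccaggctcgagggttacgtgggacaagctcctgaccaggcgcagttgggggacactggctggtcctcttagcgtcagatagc
Grid2ip start 1: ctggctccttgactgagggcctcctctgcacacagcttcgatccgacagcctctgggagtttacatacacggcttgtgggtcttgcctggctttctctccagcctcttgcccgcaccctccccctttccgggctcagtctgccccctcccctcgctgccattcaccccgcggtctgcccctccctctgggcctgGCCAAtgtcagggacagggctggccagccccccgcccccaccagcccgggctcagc
Grid2ip start 2: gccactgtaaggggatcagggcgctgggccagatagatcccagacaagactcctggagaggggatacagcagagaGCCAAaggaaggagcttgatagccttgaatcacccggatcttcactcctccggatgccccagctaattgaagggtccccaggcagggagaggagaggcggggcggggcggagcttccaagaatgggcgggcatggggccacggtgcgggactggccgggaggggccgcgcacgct

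Of the 8 genes, 4 had promoters searched, with 5 starts in all, Adgrb3 being the fourth gene. The TTGGC half-site was found in 4 of the 5, and in 41.5% of the 32851 promoters of the table. In Cbln3 it spans bases -145 to -141 before the start, in Grid2ip bases -56 to -52 of start 1 and -175 to -171 of start 2, each on the opposite strand, where it reads GCCAA in the lines above. CAGATG was found in 1 of the 5, that of Adgrb3, and in 14.4% of all promoters. AGGTCA (14.0% of all) and TATAAA (12.4% of all) were found in none of the 5. No match to any of the 4 motifs lies in the Cbln4 window. The GC content was 57.6% for Cbln3, 60.8% for Cbln4 and 67.6% and 64.4% for the 2 Grid2ip starts, beside a median of 52.4% over the table. A match to such short letters is a description of the window and no measure of binding.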

How the data were processed

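The 12 libraries, each labelled as the cerebellum of 1 mouse (a label that the markers in library 411 go against), were directional and depleted of ribosomal RNA, per the labels' protocols. The authors deposited unnormalized read counts for each gene, 1 table a library. Per the submitters' processing notes, FastQC 0.11.9, STAR 2.7.10a and the genome GRCm39 (mm39) were used, and the annotation release is not given in the sources used here. Counts on the opposite strand to the first read were used. Reads that STAR left unassigned (44.7% to 54.6% of a library), multimapping (4.08% to 7.01%), unmapped or ambiguous stayed out of library sizes. Of 55401 identifiers, 55141 matched GENCODE M21 (GRCm38), which gave symbols, lengths and coordinates, so the coordinates are of another build than the one used for alignment.

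Groups came from the labels. Genes kept by filterByExpr (19378) entered 1 quasi-likelihood fit in edgeR 4.0.16 (R 4.3.3) with TMM scaling and 1 coefficient per group over all 12 libraries. Tests were two-sided, with Benjamini-Hochberg adjustment over all genes tested and a threshold of 0.05. CPM are read counts relative to TMM-scaled library sizes. Single genes were also compared on log2 CPM (prior count 2) with exact permutation tests, two-sided, over 70 assignments (SciPy 1.17.1). Each library is 1 mouse, and litters and extraction batches are not named. The edgeR step was tested on simulated data.

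Alternatives were DESeq2 1.42.0, RLE factors, no filter, unstranded counts, only the 2 groups compared, limma 3.58.1 with library quality weights, and fits without chosen libraries or without each library in turn. The ratios to marker genes, the fit without libraries 410, 411 and 430, the list values without library 411 and the check of outlying levels on linear CPM were added after the data were examined. The 8 genes, the partner list and the 10 marker lists were chosen with earlier results of these data known. All 8 genes are described. Other genes are named where a list member passed the threshold, where they are markers that moved with 1 of the 8, or as the nearest genes by pattern (mean of at least 1 CPM, and a range of at least 1 log2 unit in the gene described), of which 3 were found and the nearest is printed. Any other gene is said to have been picked by its values where it appears.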

Additional observations from a re-analysis of the deposited data

Results flagged for a closer look

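In a group of 4 libraries, a level on the log2 CPM scale was looked at again when the gap between the highest or lowest library and its nearest neighbour was too large a share of the group's range by Dixon's 95% critical value. Of 24 checks (8 genes in 3 groups) 6 met this, where chance gives about 1.2. In Het DMSO, 5 of these were library 411. Cbln1 was at 18.0 CPM there with the nearest library at 382, and Cbln3 was at 2.52 with the nearest at 759. Grid2ip was at 4.64 CPM with the nearest at 92.1. Cbln2 was at 31.5 CPM with the nearest at 0.167, and Grid1 was at 96.8 with the nearest at 34.2. Cbln4 and C1ql1 were also highest in library 411, at 21.7 and 10.9 CPM, and met the criterion on linear CPM but not on log2. In Het Hit 2, C1ql1 was at 4.98 CPM in library 410, with the nearest library at 1.88. On linear CPM 5 checks met the criterion, 3 of them the same as on log2 (Cbln2 and Grid1 in library 411 and C1ql1 in library 410).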

How the results depend on the processing

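The count of the 8 genes past the adjusted threshold was 0 in each comparison under all 21 alternatives. Over all genes the count was 1 for each Het group against WT DMSO, and 0 between the Het groups, there also under every alternative. For Het DMSO and Het Hit 2 against WT DMSO it was 43 and 24 with DESeq2, 98 and 221 with limma's library weights, 0 and 54 with only the 2 groups compared, 18 and 90 without libraries 409 and 411, and 0 and 0 without libraries 425 and 426. It was 13 for Het DMSO without libraries 410, 411 and 430, and for Het Hit 2 4 with no filter and 2 with unstranded counts. Leaving out each library gave 0 to 9 and 0 to 14, the highest both without library 411. The cause of these shifts was not tested. No paired analysis was possible because animal numbers do not recur between groups.

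The log2 fold changes of Grid2ip against WT DMSO kept their sign under every alternative, from -1.48 to -0.63 in Het DMSO and from -0.96 to -0.58 in Het Hit 2, and so did those of Cbln3 against WT DMSO and of Cbln1 in Het Hit 2 against WT DMSO. Other signs turned as follows, and the causes were not tested. In Het DMSO against WT DMSO, limma's weights gave -1.59 for Cbln2, -0.033 for Grid1, -0.15 for C1ql1 and 0.035 for Adgrb3. Without libraries 409 and 411 the values were -3.56 for Cbln2, -1.12 for Cbln4, -0.080 for Grid1, -0.37 for C1ql1 and 0.077 for Adgrb3. Without libraries 410, 411 and 430 they were 0.071 for Cbln1, -3.98 for Cbln2, -0.36 for Cbln4, -0.012 for Grid1 and -0.48 for C1ql1. Leaving out each library gave -0.81 to 0.068 for Cbln1, -3.98 to 3.70 for Cbln2, -0.37 to 4.05 for Cbln4, -0.014 to 0.71 for Grid1 and -0.48 to 1.01 for C1ql1.

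In Het Hit 2 against Het DMSO, limma's weights gave 1.37 for Cbln2, 0.14 for Grid1 and -0.032 for Adgrb3. Without libraries 409 and 411 the values were 5.31 for Cbln2, -0.20 for Cbln3, 2.99 for Cbln4, 0.33 for Grid1, 0.40 for C1ql1 and -0.10 for Adgrb3. Without libraries 410, 411 and 430 they were 0.48 for Cbln2 and -0.15 for Cbln3. Leaving out each library gave -0.58 to 0.30 for Cbln1, -1.30 to 5.73 for Cbln2, -0.38 to 0.38 for Cbln3, -2.64 to 2.24 for Cbln4, -0.45 to 0.27 for Grid1, -0.22 to 0.64 for Grid2ip, -1.25 to 0.50 for C1ql1 and -0.014 to 0.33 for Adgrb3.

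In Het Hit 2 against WT DMSO, limma's weights gave -0.22 for Cbln2, -0.88 for Cbln4, -0.30 for C1ql1 and 0.0038 for Adgrb3. Without libraries 425 and 426 C1ql1 was at -0.16 and Adgrb3 at 0.071. Without libraries 410, 411 and 430 the values were -3.49 for Cbln2, -3.75 for Cbln4, -0.016 for Grid1, -0.61 for C1ql1 and 0.14 for Adgrb3. Leaving out each library gave 1.08 to 3.07 for Cbln2, 0.40 to 2.89 for Cbln4, -0.53 to 0.29 for C1ql1 and -0.09 to 0.037 for Adgrb3. Depth limits Cbln2, Cbln4 and C1ql1, which had at most 6, 10 and 58 reads in several libraries. Without library 411 the median log2 fold change turned from -0.10 to 0.34 for the granule list in Het DMSO against WT DMSO, and for the partner list from 0.05 to -0.0090 there and from 0.01 to -0.073 in Het Hit 2 against Het DMSO. With 3 libraries against 4, the exact test of a ratio cannot reach 0.05.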
